A study of Mus musculus with 2 samples.

Results

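The Mir183, Mir96 and Mir182 genes form a cluster of microRNA loci on mouse chromosome 6, and their levels were read from small-RNA sequencing of facial prominence tissue. The members were the 3 genes with these symbols, found by matching the Ensembl identifiers of the count tables to GENCODE, and all 3 of the 3 were present among 1973 microRNA loci. The tissue, the embryonic swellings whose fusion makes the face, came from embryos of the mouse strain B6NCrl at embryonic day 11.5. There was 1 group of 2 biological replicates, with tissue pooled from 109 embryos in replicate 1 and from 88 in replicate 2. Both pools held males and females described as healthy, both carry the same donor entry, and no treatment or altered allele is named in their labels.

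The cluster is known as the sensory microRNA cluster. Its hairpins are cut from a shared primary transcript, and the mature microRNAs are abundant in hair cells of the inner ear, photoreceptors, olfactory neurons and sensory ganglia. In mice, a base change in the seed of miR-96, the stretch that pairs with target messengers, causes progressive hearing loss, and removal of the whole cluster impairs several senses. Cranial sensory ganglia, olfactory epithelium and developing eye form close to the facial prominences.

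The mature sequences are shown first because the members are related through their seeds. The sequences are from RefSeq (GRCm38.p6), in which all 3 genes were matched, and the capitals mark the seed, bases 2 to 8 counted from the 5′ end.
miR-183-5p: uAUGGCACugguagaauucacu
miR-96-5p: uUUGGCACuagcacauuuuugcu
miR-182-5p: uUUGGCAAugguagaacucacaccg
All 3 seeds hold the letters UGGCA at bases 3 to 7. Of 1738 mature mouse microRNAs in the table, 5 (0.288%) hold these letters at these bases. The other two are miR-7022-5p and miR-1271-5p, whose genes had 0 counts in both libraries.

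Each pair of seeds differs at 1 or 2 bases. Counted from the 5′ end, miR-183-5p and miR-96-5p differ in the seed by A2U, miR-96-5p and miR-182-5p by C8A, and miR-183-5p and miR-182-5p by both of these changes. Over the longer sequence the closest pair is a different one. Over the first 22 bases, miR-183-5p and miR-182-5p matched at 18 bases, whereas miR-183-5p and miR-96-5p matched at 13. Over 23 bases, miR-96-5p and miR-182-5p matched at 12.

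The counts are per gene, so reads of the 5p and 3p arms of a hairpin are added together. The 3p arms are therefore part of every level below, and their seeds have no 7-base match among the members.
miR-183-3p: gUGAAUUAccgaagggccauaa
miR-96-3p: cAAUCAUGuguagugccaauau
miR-182-3p: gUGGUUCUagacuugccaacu
A seed shared with another gene was found for both arms of Mir96. The seed of miR-96-5p is also that of miR-1271-5p, from the gene Gm24195 on chromosome 13, and the seed of miR-96-3p is that of miR-3475-5p, from Mir3475 on the X chromosome.
miR-1271-5p: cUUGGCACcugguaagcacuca
miR-3475-5p: aAAUCAUGuacccccacagagg
Gm24195 had 0 counts in both libraries, and a count of 0 leaves room for levels of at most 1.55 and 1.29 CPM in replicates 1 and 2. CPM here are counts scaled to a library total of 1000000 sense counts. Mir3475 had 69 counts in replicate 1 and 72 in replicate 2, or 35.5 and 31.0 CPM. Among the genes with these seeds, nearly all counts were therefore at Mir96 itself. The counts do not separate the arms, so the level of miR-96-3p beside that of miR-3475-5p is not known.

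The hairpins are shown next because a read can be counted only where its sequence is placed at 1 position, and the capitals mark the annotated 5p and 3p arms.
Mir183: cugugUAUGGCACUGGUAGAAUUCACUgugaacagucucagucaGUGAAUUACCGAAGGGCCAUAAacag
Mir96: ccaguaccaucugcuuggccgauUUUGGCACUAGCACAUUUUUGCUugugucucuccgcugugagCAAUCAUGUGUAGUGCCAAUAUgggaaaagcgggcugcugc
Mir182: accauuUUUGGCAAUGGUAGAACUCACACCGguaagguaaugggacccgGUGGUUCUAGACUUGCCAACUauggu
The mature arms are 21 to 25 bases long. Each hairpin was compared with the other 1004 mouse hairpins in the table on both strands. The longest run shared with any of them was 11 bases for Mir183, 10 bases for Mir96 and 10 bases for Mir182, all shorter than a mature arm. Not every counted locus was among these hairpins, and the rest of the genome was not compared. Placement of each read at 1 position is therefore not shown. Because a small-RNA read covers a mature arm rather than a part of a long transcript, levels were not divided by gene length.

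All 3 loci lie on the minus strand of chromosome 6 (GRCm38). Mir183 is at chr6:30169668-30169737, Mir96 at chr6:30169446-30169551 and Mir182 at chr6:30165918-30165992. On the transcribed strand Mir183 comes first, Mir96 follows after a gap of 116 bases, and Mir182 follows after a gap of 3453 bases. RefSeq places the whole span of 3820 bases inside Mirc35hg, a long noncoding RNA gene of the same strand (chr6:30158640-30174125). Whether the hairpins fall in its exons or introns was not analysed here. In GENCODE no gene other than the 3 members overlaps the span on either strand. The next gene on one side is Nrf1, a transcription factor gene 12459 bases away on the plus strand, and on the other side Rncr4, a long noncoding RNA gene known from retina, 3155 bases away on the plus strand. The next protein-coding gene on that side is Ube2h, for a ubiquitin-conjugating enzyme, 41551 bases away.

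**Figure D1:**
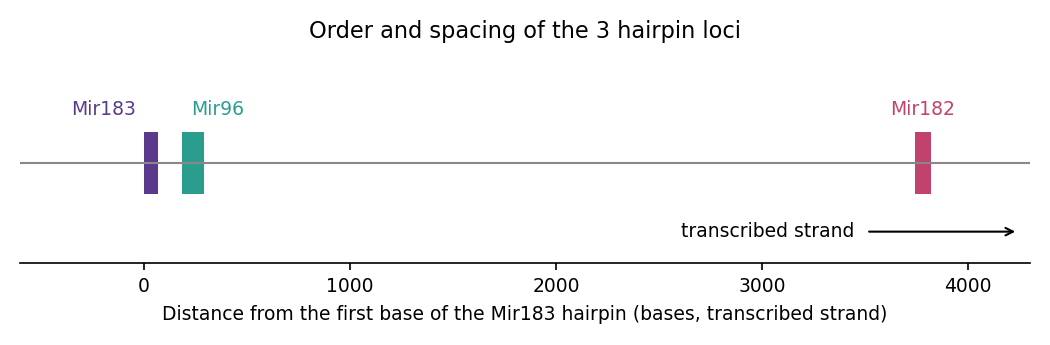
Map of the 3 hairpin loci to scale, with the horizontal axis giving the distance in bases from the first base of the Mir183 hairpin along the transcribed strand. Mir183 and Mir96 are 116 bases apart, and Mir182 stands 3453 bases beyond Mir96.

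All 3 members were abundant in both libraries. Mir183 had 28015 sense counts in replicate 1 and 31718 in replicate 2, or 14428 and 13672 CPM. Mir182 had 24374 and 35164 sense counts, or 12553 and 15158 CPM. Mir96 had 11367 and 12164 sense counts, or 5854 and 5243 CPM. Mir183 and Mir182 were thus close to each other, with overlapping ranges, while Mir96 was below both in each library. The means were 14050 ± 534 CPM for Mir183, 13855 ± 1842 CPM for Mir182 and 5549 ± 432 CPM for Mir96 (SD, n = 2). As a share of the mean, the spread was 3.80% for Mir183, 7.78% for Mir96 and 13.3% for Mir182. The common biological coefficient of variation that edgeR estimated from loci averaging 10 or more counts was 16.7%. It is a single value for loci of all levels above that minimum, and not the spread usual at the members' levels. With this depth the counting error was narrow, and for Mir182 it ran from 12397 to 12710 CPM in replicate 1, apart from 15001 to 15316 CPM in replicate 2 (exact binomial 95% intervals). An exact two-sided test on 2 libraries cannot reach below p = 0.5, so differences are set beside the spread between pools and given no p-value.

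**Figure D2:**
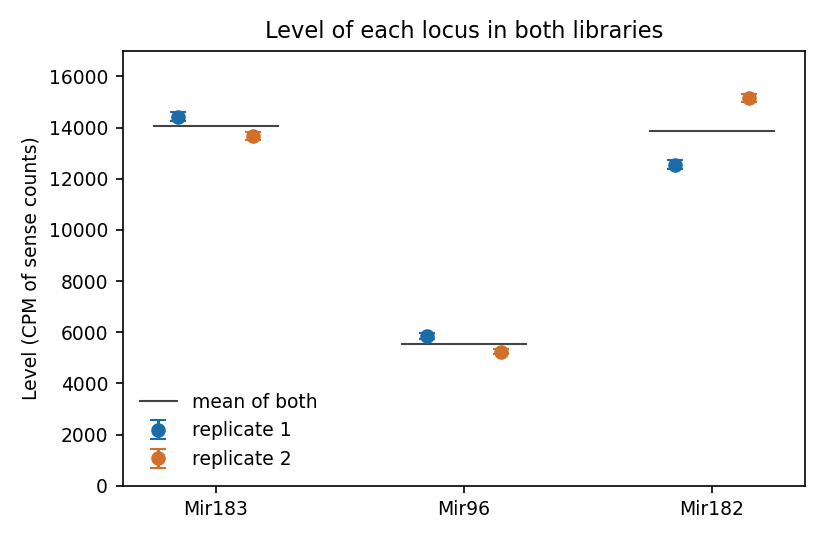
Level of each locus in CPM of sense counts (vertical axis from 0), with 1 point per library, exact binomial 95% counting intervals as bars and the mean of both libraries as a line. Mir96 lies between 5243 and 5854 CPM, under Mir183 and Mir182 in both libraries, and the points of Mir182 are the farthest apart.

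In the order of mean level over all loci, Mir183 was 15th, Mir182 16th and Mir96 45th. Mir183 held place 16 in replicate 1 and 18 in replicate 2, Mir182 held places 21 and 14, and Mir96 held places 45 and 47. The locus just above Mir183 was Mir93, of the growth-associated Mir106b cluster, and it was higher than Mir183 without overlap, at 15770 and 15514 CPM. The locus just below Mir182 was Mir143, known from smooth muscle, at 13169 and 14185 CPM, which overlapped the ranges of both Mir183 and Mir182. Around Mir96, Mir203, known from skin, at 6297 and 5758 CPM, and Mir342, at 4649 and 6338 CPM, both overlapped its range. The exact places within these stretches are therefore not fixed by 2 libraries.

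The loci nearest to each member in level over the 2 libraries were chosen by distance in log2(CPM + 1). They were Mir652 (distance 0.10) and Mirlet7i (0.13) for Mir183, Mir324 (0.06) and Mir379 (0.14) for Mir96, and Mir143 (0.12) and Mir100 (0.13) for Mir182. For Mir182, the cluster neighbour Mir183 came next, at 0.25. With 2 libraries, such nearness describes level and little else.

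Together the members took 3.28% of the sense counts in replicate 1 and 3.41% in replicate 2 (63756 of 1941745 and 79046 of 2319881), or 3.35% ± 0.0876 (SD, n = 2). Clusters were defined as runs of annotated loci on 1 strand with gaps of at most 10 kb. By summed level this one was 6th of 104. The sum differed between pools by a log2 ratio of 0.05 (counting interval 0.04 to 0.07), less than any of its members did. The rather even sum came from changes of unlike sign in the members.

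Within the cluster, the composition can be read without scaling to a library total. Mir183 made up 43.9% of the cluster's counts in replicate 1 and 40.1% in replicate 2. Mir96 made up 17.8% and 15.4%. Mir182 made up 38.2% and 44.5%. Mir182 gained 6.26 percentage points in replicate 2, with changes of -3.81 points for Mir183 and -2.44 points for Mir96. Mir183 was the leading member of the cluster in replicate 1 and Mir182 in replicate 2.

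**Figure D3:**
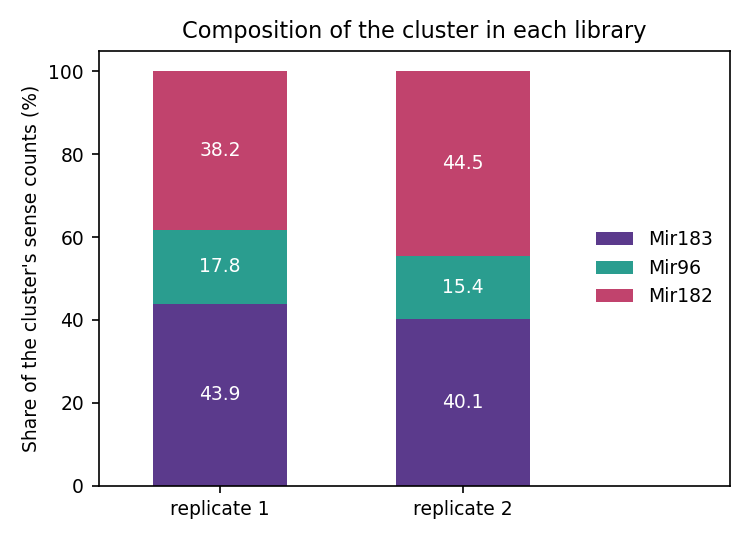
Share of the cluster's sense counts (vertical axis, percent, from 0 to 100) held by each member in each library. The share of Mir182 is 38.2% in replicate 1 and 44.5% in replicate 2, and those of Mir183 and Mir96 are lower in replicate 2.

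The ratio of Mir183 to Mir182 changed sign between the libraries. Its log2 value was 0.20 in replicate 1 (counting interval 0.18 to 0.23) and -0.15 in replicate 2 (-0.17 to -0.13). The order of these members is therefore not settled by the data, with a mean of 0.03 ± 0.25 (SD, n = 2). The ratio of Mir183 to Mir96 had log2 values of 1.30 and 1.38, a mean of 1.34 ± 0.06. The ratio of Mir182 to Mir96 had log2 values of 1.10 and 1.53, a mean of 1.32 ± 0.30. In both of these pairs the difference exceeded, in each library, the difference between pools of either locus. Between the libraries, the ratio of Mir183 to Mir96 differed by 0.08 on the log2 scale (counting interval 0.04 to 0.12). That of Mir182 to Mir96 differed by 0.43 (0.39 to 0.47). Differences in level between loci also carry differences in ligation, amplification and placement of each sequence, whose part in these ratios was not tested.

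Other clusters give a scale for these differences. There were 12 clusters with at least 3 loci averaging 100 or more counts, and this was one of them. The log2 range of mean levels within it was 1.34, and all of the other 11 had a wider range, with a median over the 12 of 3.96. Exactly 3 such loci were present in 4 of the 12, and the other clusters of this size are Mir106b with Mir93 and Mir25, the Mir200b cluster of epithelium, and the Mir23a cluster. Their log2 level ranges were 4.09, 3.83 and 5.99. When clusters with only 2 such loci were added, the number rose to 36, of which 28 had a wider range than this one and 7 a narrower range, so the narrow spread is not particular to it. Clusters with more loci have more room for a wide range, and loci with near-identical copies elsewhere lose reads, so these ranges are descriptions only.

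The range of the ratio between pools within a cluster was 0.43 here, beside 0.15, 0.28 and 0.29 in those clusters of 3 loci. Over the 12 clusters the median was 0.30, and 3 had a wider range. Among 79 pairs of adjacent loci that both averaged 100 or more counts, Mir96 and Mir182 differed in their log2 ratio between pools by 0.43, and 4 pairs differed by more. Mir183 and Mir96 differed by 0.08, and 55 of the 79 pairs differed by more, with a median of 0.14. Among the 30 pairs with mean counts of at least 1000, where counting error is smaller, 3 pairs differed by more than Mir96 and Mir182, and 17 by more than Mir183 and Mir96. Mir96 and Mir182 were thus among the more divergent adjacent pairs, and Mir183 and Mir96 differed by less than the median pair. Whether such differences go with the gap between loci was not tested.

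Between the pools, none of the members differed by 2-fold. The log2 ratio of replicate 2 over replicate 1 was -0.08 for Mir183 (counting interval -0.10 to -0.05), -0.16 for Mir96 (-0.20 to -0.12) and 0.27 for Mir182 (0.25 to 0.30). Among the 257 loci averaging 100 or more counts, the 2-fold limit was passed by 5, which is 1.95%, so 0 of 3 members past this limit is no result about the members. Mir183 and Mir96 were lower in replicate 2, as were 49.4% of the 257 loci, and Mir182 was higher, as were 50.6%. When all reads served as the library total in place of the sense counts, the median ratio of all loci shifted by -0.26, and the ratios became -0.33 for Mir183, -0.41 for Mir96 and 0.017 for Mir182. A change of library total moves the ratios of all loci by the same amount, and set against the median of all loci the ratios were -0.09, -0.17 and 0.26.

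The size of the ratio was common for Mir183 and Mir96 and less common for Mir182. A larger ratio in either direction was seen at 181 of the 257 loci for Mir183, at 114 for Mir96 and at 54 for Mir182. Among the 24 loci with at least 10000 CPM, where counts are high and ratios ran from -0.27 to 0.27, Mir182 had the highest ratio. In this group 1 locus had a larger ratio in either direction, Mirlet7g of the let-7 family, which was lower in replicate 2. Without regard to sign, the median log2 ratio was 0.14 over the 257 loci and 0.095 over the 24, beside 0.27 for Mir182. There is 1 library on each side, so the difference of Mir182 between pools has no replicate check.

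**Figure D4:**
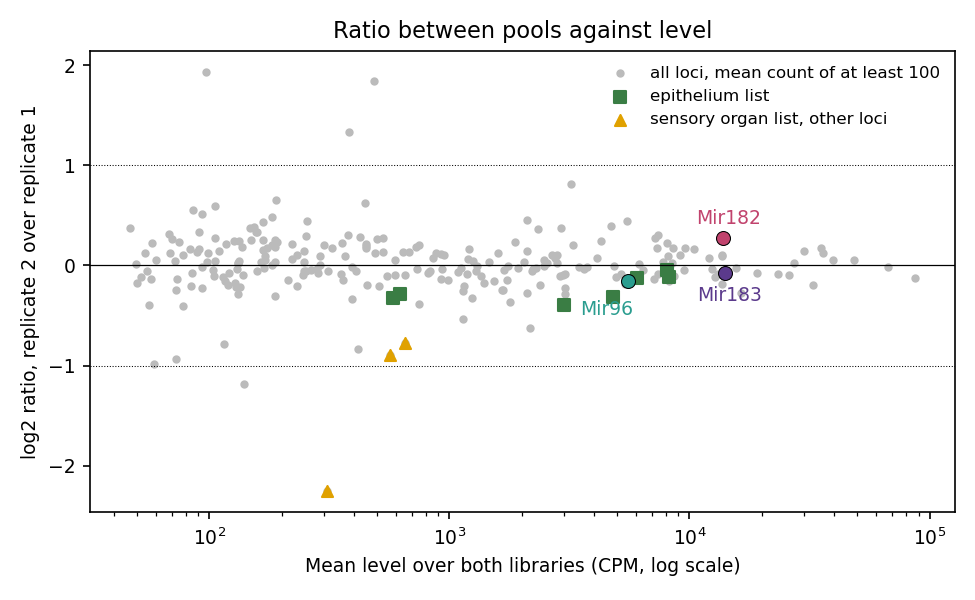
Log2 ratio of replicate 2 over replicate 1 (vertical axis) against mean level in CPM (horizontal axis, log scale) for the 257 loci averaging 100 or more counts, with dotted lines at 2-fold. The members lie between -0.16 and 0.27, the 7 epithelium loci lie under 0, and the other 3 sensory organ loci lie between -2.26 and -0.77.

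The other loci of the sensory organ list were far lower in level than the cluster, and their ratios between the pools were larger in size than those of its members. Mir204, known from retinal pigment epithelium, lens and choroid plexus, had 825 CPM in replicate 1 and 483 in replicate 2. Mir211, its relative in pigment cells, had 738 and 396 CPM. Mir184, known from lens and cornea, had 512 and 107 CPM. All 3 were lower in replicate 2, as were 49.4% of the 257 loci averaging 100 or more counts. Their log2 ratios were -0.77, -0.90 and -2.26, so 1 of the 3 passed 2-fold, beside 1.95% of the 257 loci. The summed share of Mir204, Mir211 and Mir184 was 0.207% in replicate 1 and 0.0986% in replicate 2. The summed level of the Mir183 cluster was 15.8 times theirs in replicate 1 and 34.5 times in replicate 2. Mir204, Mir211 and Mir184 therefore changed between the pools far more than any cluster member did. The list was chosen with earlier results of these data known, so the size of these ratios beside all loci is a description only. In bulk tissue, fewer cells of a type and less RNA per cell cannot be told apart, and the part of eye or ganglion tissue in the cluster's levels was not tested.

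Epithelial loci were close to the cluster in summed level. The 7 loci of the epithelium list (the Mir200 family with Mir141 and Mir429, plus Mir205 and Mir203 of surface ectoderm) took 3.31% of the counts in replicate 1 and 2.95% in replicate 2. The cluster's sum was 0.992 times this in replicate 1 and 1.15 times in replicate 2. All 7 were lower in replicate 2, as were 49.4% of the 257 loci averaging 100 or more counts. They are not separate observations, since Mir429, Mir200a and Mir200b lie in a shared cluster and Mir141 and Mir200c in another. The median log2 ratio of the 7 was -0.28, with a range from -0.40 for Mir200b to -0.04 for Mir205. The ratios of Mir183 and Mir96 lay inside this range, and that of Mir182 lay outside it, on the other side of 0. Those of Mir183 and Mir96 also lay inside the range of the neural loci averaging 100 or more counts, -0.38 to 0.04. Those of Mir183 and Mir182 lay inside that of the mesenchyme loci, -0.11 to 0.44. Lying inside the epithelium range is therefore not particular to that list. The part of epithelium in the cluster's levels was not tested.

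The counted levels of the neural and neuroendocrine loci were much lower, but these lists are incompletely counted. Of 14 measured loci of the neural list, 6 averaged 100 or more counts, and the list took 0.288% of the counts in replicate 1 and 0.239% in replicate 2. The leading locus was the neuronal Mir137, at 1384 and 1109 CPM. Among the defining markers, Mir124a-3 was at 0 in both libraries, Mir124a-1 had 0 counts and 1 count, and Mir124a-2 had 9 and 7. The copies of Mir124a share their mature sequence, and of the 11 neural loci with an entry in the RefSeq table, 10 (the copies of Mir9, Mir128, Mir138, Mir129 and Mir219a) have a mature arm identical to that of another gene. Mir137 was the exception. Reads placed at several positions are missing from such loci, so the sum of the list is too low by an unknown amount. Of the 6 neural loci, 4 were lower in replicate 2, beside 49.4% of the 257 loci averaging 100 or more counts. The median log2 ratio of the 6 was -0.18, with a range from -0.38 to 0.04. The 4 neuroendocrine loci, Mir375 and the Mir7 genes, took 0.125% and 0.133%. All 4 had ratios from 0.00 to 0.23, and 50.6% of the 257 loci were higher in replicate 2. Of the 4, 2 (Mir7-1 and Mir7-2) share a mature arm and are incomplete in the same way. Mir182, at 0.27, was above that range.

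Loci of mesenchyme, the main tissue of the prominences, were also set beside the cluster. Like the other lists, this list was chosen with earlier results of these data known, so its levels are no check of the labelled tissue. The 7 loci of this list took 5.25% of the counts in replicate 1 and 5.58% in replicate 2. They were led by Mir214, at 28519 and 31478 CPM, and Mir143, and included Mir140 of cartilage at 8912 and 8262 CPM. The rest were much lower in replicates 1 and 2. Mir199b had 1412 and 1310 CPM, Mir145a 217 and 294, Mir199a-2 205 and 238, and Mir199a-1 22 and 23. The 3 Mir199 genes of the list share a mature arm, so its sum is also incomplete. Mir143 and Mir145a had no entry in the RefSeq table and were not compared. Within that table, which does not hold every counted locus, no locus of the cluster shared a mature arm with another gene. The same held for the epithelium and sensory organ lists. Of the 6 mesenchyme loci that averaged 100 or more counts, 4 were higher in replicate 2, beside 50.6% of all 257 such loci. The median log2 ratio of the 6 was 0.12, with a range from -0.11 to 0.44. The cluster's summed level was 0.626 times that of the mesenchyme list in replicate 1 and 0.611 times in replicate 2. Of the lists used here, mesenchyme and epithelium had counted sums of the same order as the cluster.

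**Figure D5:**
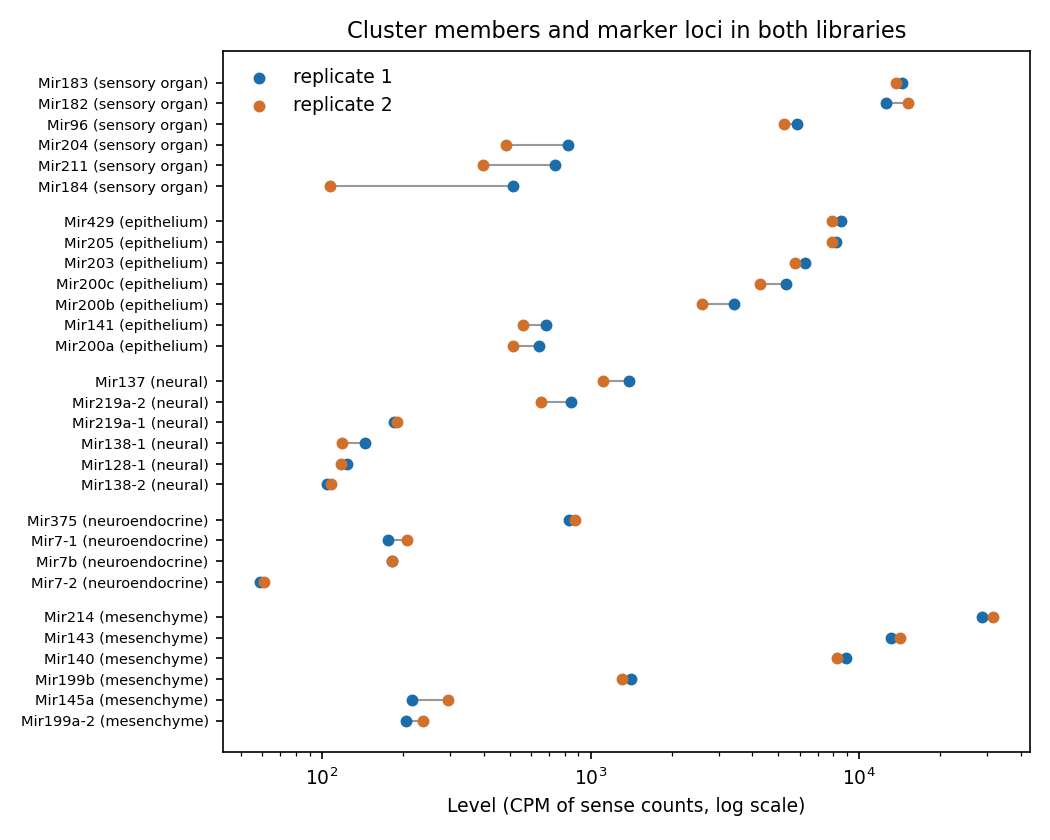
Level in CPM (horizontal axis, log scale) of the cluster members and of the listed marker loci averaging 100 or more counts, with 1 point per library joined by a line. Mir183, Mir182 and Mir96 stand well above Mir204, Mir211 and Mir184 of the same list, whose points are also farther apart.

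On the opposite strand of the members almost no reads were counted. Mir183 had 1 opposite-strand count in replicate 1 and 4 in replicate 2, Mir182 had 1 and 2, and Mir96 had 0 in both. Over all loci, the sense column held 97.0% and 96.8% of the stranded counts in replicates 1 and 2. The levels of the cluster therefore rest on the sense strand, although the plus-strand genes Nrf1 and Rncr4 flank it.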

How the data were processed

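Each library's table, as deposited, holds unnormalized read counts for microRNA genes of mm10 in the GENCODE M4 annotation, per the notes filed with it. Neither the aligner nor the counter is named in these notes or in the labels. Sense counts (1941745 in replicate 1, 2319881 in replicate 2) were used. Reads assigned to no gene stayed outside the totals. In replicates 1 and 2 they were 30.9% and 38.6% unmapped reads, 22.7% and 20.5% reads at several positions and 5.51% and 6.75% reads at no locus, of 4755968 and 6781929 reads. Symbols came from GENCODE M21 on the same assembly, with versions ignored, for 1894 of 1973 identifiers.

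CPM, shares and ratios were computed with Python 3.11.15, pandas 2.3.3, numpy 2.4.6 and scipy 1.17.1. The 95% intervals are exact (Clopper-Pearson) binomial, except the normal approximation for changes of a ratio. They, and the limit of 3 counts from a count of 0, cover counting error only. Library factors and the dispersion came from edgeR 4.0.16 and DESeq2 1.42.0. Alternatives were other library totals, strand columns, count minimums and leaving out a library. The CPM scaling and the 2-fold limit between pools were tested on simulated data. Counts of the pools differed by more than sampling noise (chi-square 14731, 362 degrees of freedom), so both libraries were kept.

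The members and lists (sensory organ, epithelium, neural, neuroendocrine, mesenchyme) were chosen with earlier results of these data known, as was the naming rule: members, their 2 nearest loci, listed loci averaging 100 or more counts, loci sharing a seed and flanking genes. The comparisons with other clusters, adjacent pairs, loci of at least 10000 CPM and loci near in rank, and the names drawn from these, were chosen after values were seen. Mir9-1 was not analysed here.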

Additional observations from a re-analysis of the deposited data

Results flagged for a closer look

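Opposite-strand counts at Mir183 in replicate 2, which no comparison uses, were 4, just above the limit of 3 counts that a count of 0 allows. They stand beside 31718 sense counts at the same locus, and replicate 1 had 1.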

How the results depend on the processing

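With TMM factors, DESeq2 size factors or a total over loci with at least 10 counts in both libraries, the count of loci past 2-fold stayed at 5. Under the same settings, the levels, the summed share and the ratios between pools stayed within their replicate or counting spread. With the column irrespective of strand, the summed share was 3.24%, since the total then also holds opposite-strand counts, and the other 12 values stayed within that spread. With all reads as the total, the levels were 5284 CPM for Mir183, 2092 CPM for Mir96 and 5155 CPM for Mir182, the summed share was 1.25%, the log2 ratios between pools were -0.33, -0.41 and 0.017, and 11 loci passed 2-fold in place of 5. That total includes unmapped reads, whose share differed between the libraries. The number past 2-fold was 13 at a minimum mean count of 20 and 3 at a minimum of 500. Without 1 replicate, the log2 ratio of Mir183 to Mir182 ran from -0.15 to 0.20, that of Mir183 to Mir96 from 1.30 to 1.38 and that of Mir182 to Mir96 from 1.10 to 1.53. Without 1 replicate, a ratio between pools cannot be formed. No paired analysis was possible because there is 1 group. Depth limited none of the members' values, but it limits loci near 3 counts.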
